A study of Mus musculus with 4 samples.

Results

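Late maturation of CD4 single-positive thymocytes that lack miR-142 was followed by setting the array of miR-142-/- Qa2+ thymocytes against the array of miR-142-/- Qa2- thymocytes. These are 2 of the 4 arrays of the study, chosen by their titles, and each value below is the log2 difference of a gene between them, Qa2+ minus Qa2-. The other 2 arrays hold the same stages from WT mice and are given beside them. Thymi of 8-week-old C57BL/6n mice were pooled by genotype: 4 miR-142-/- mice (1 female and 3 males) and 5 WT mice (3 females and 2 males). CD8+ cells were depleted on magnetic beads, and the remaining cells were sorted as CD4+CD8-CD69+Qa2- (the earlier stage) or CD4+CD8-CD69-Qa2+ (the later stage). How the miR-142 allele was made, and in which cells it acts, is not given in the sources used here. The free-text note of the miR-142-/- Qa2- sample calls it Qa2+, while its title and its sort entry give Qa2-, and the title and the sort were followed.

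Each group has 1 array of 1 pool, so no value has a replicate error, no test was possible, and a difference describes these 2 pools. As a guide to array scatter, the stage difference of 1194 olfactory and vomeronasal receptor genes, which thymocytes should not use, had an SD of 0.21 in miR-142-/- cells and 0.22 in WT cells on the log2 scale. It describes dim probe sets on single arrays, and variation among mice is outside it. The 95th percentile of the same genes, a log2 value of 5.87, was taken as the background threshold, and 12591 of 19938 genes had a mean over the 4 arrays above it. Where the dimmer array of a gene lay below the threshold, the threshold took the place of that array and the fold is written as "at least". Counts at 2-fold and 1.5-fold use the log2 differences without this replacement. In sorted bulk cells, fewer cells that use a gene and less RNA of it per cell cannot be told apart.

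After positive selection, CD4 single-positive thymocytes spend some days in the thymic medulla, where they lose CD69 and receptors such as CCR4 and CCR9, gain Qa2 and the sphingosine-1-phosphate receptor S1PR1, and then leave for the blood. The transcription factor KLF2 drives S1pr1, while CD69 holds the S1PR1 protein inside the cell. miR-142 is a microRNA of blood cells in which both arms of the hairpin are abundant. A microRNA pairs with target transcripts through its seed, the bases near its 5′ end that are written in capitals below.

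The sequences of the absent microRNA, both from the hairpin on chromosome 11 (GRCm38.p6, RefSeq, plus strand), show the 2 different seeds that the miR-142-/- cells lack; the 5p arm lies at chr11:87756867-87756887 and the 3p arm at chr11:87756903-87756925.
miR-142a-5p: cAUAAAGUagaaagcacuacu
miR-142a-3p: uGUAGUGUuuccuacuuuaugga

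The probe set of the miR-142 hairpin gene, Mir142, read 5.29 in miR-142-/- Qa2- cells and 4.88 in miR-142-/- Qa2+ cells, both below the background threshold, and 10.11 and 9.41 in the WT cells. Of the sort markers, Cd69 read 11.51 in Qa2- and 10.55 in Qa2+ cells without miR-142, a difference of -0.96. Qa2 is encoded by genes of the H2-Q family, whose members are close copies of each other, so their probe sets may share signal. The members read here, H2-Q2, H2-Q4, H2-Q5 and H2-Q10, are given as members of that family and not as a reading of Qa2 itself. H2-Q4 read 10.39 and 11.13, and H2-Q5 read 8.96 and 9.92, higher in Qa2+ by 0.73 and 0.96. H2-Q2 read 8.16 and 8.03, a difference of -0.12, and H2-Q10 was below background on all 4 arrays. Cd4 was 12.47 and 12.36 and Cd8a was 7.33 and 7.25 on these arrays. The Y-linked gene Eif2s3y read 10.55 and 10.58 and Xist, which females express, read 5.06 and 4.83, below background on both arrays, although 1 of the 4 mice of this pool is labelled female; in WT cells Xist read 12.67 and 12.14. The Y-linked genes Eif2s3y (4.29 and 4.39), Kdm5d (5.05 and 4.99) and Uty (4.45 and 5.09) were below background on both WT arrays, although 2 of the 5 mice of that pool are labelled male. The arrays thus go against the labelled sex of both pools: the miR-142-/- arrays read as male only and the WT arrays as female only. The 2 stages of a genotype read alike in this, but in every comparison with WT below, genotype and sex cannot be told apart.

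Between the stages, 90 of 12591 genes above background (0.715%) were higher by 2-fold or more at the later stage without miR-142, and 103 (0.818%) were lower by as much. At 1.5-fold the counts were 334 (2.65%) and 458 (3.64%). The WT stages gave 66 (0.524%) and 92 genes (0.731%) at 2-fold, and 339 (2.69%) and 465 (3.69%) at 1.5-fold. These shares are the background against which counts in gene lists are read below. The median difference over all genes above background was -0.06 in both genotypes. Of the 90 and 103 genes at 2-fold without miR-142, 7 and 13 had their dimmer miR-142-/- array below the threshold. Outside the filter, 9 more genes on the higher side and 4 on the lower side had log2 differences of 2-fold or more. Their brighter miR-142-/- array was above the threshold and their dimmer one below it. Set against the threshold, Mcpt8 was at least 2.97-fold higher, and Rnu5g came next at 1.84-fold.

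Of the receptors that mark departure and medullary residence, S1pr1 had the second largest difference towards higher values at the later stage and Ccr4 the third largest towards lower ones, while Ccr9 differed little. S1pr1, the receptor by which thymocytes sense sphingosine-1-phosphate and exit, read 8.57 in Qa2- and 11.51 in Qa2+ cells without miR-142, and 10.27 and 11.97 in WT cells. It was therefore 7.72-fold higher at the later stage without miR-142 and 3.26-fold higher in WT. The Qa2- arrays of the genotypes lie 1.70 apart and the Qa2+ arrays 0.46. Ccr4, a receptor that draws newly selected cells into the medulla, read 11.39 and 8.60 without miR-142 and 11.69 and 9.45 in WT, 6.91-fold and 4.70-fold lower at the later stage. Ccr9, the receptor for the thymic chemokine CCL25, read 12.73 and 12.35 without miR-142 against 12.68 and 10.77 in WT. The Ccr9 difference was thus -0.38 (1.30-fold lower) without miR-142 and -1.92 (3.77-fold lower) in WT, and the arrays that stand apart are the 2 Qa2+ ones, while the Qa2- arrays lie 0.05 apart.

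**Figure D1:**
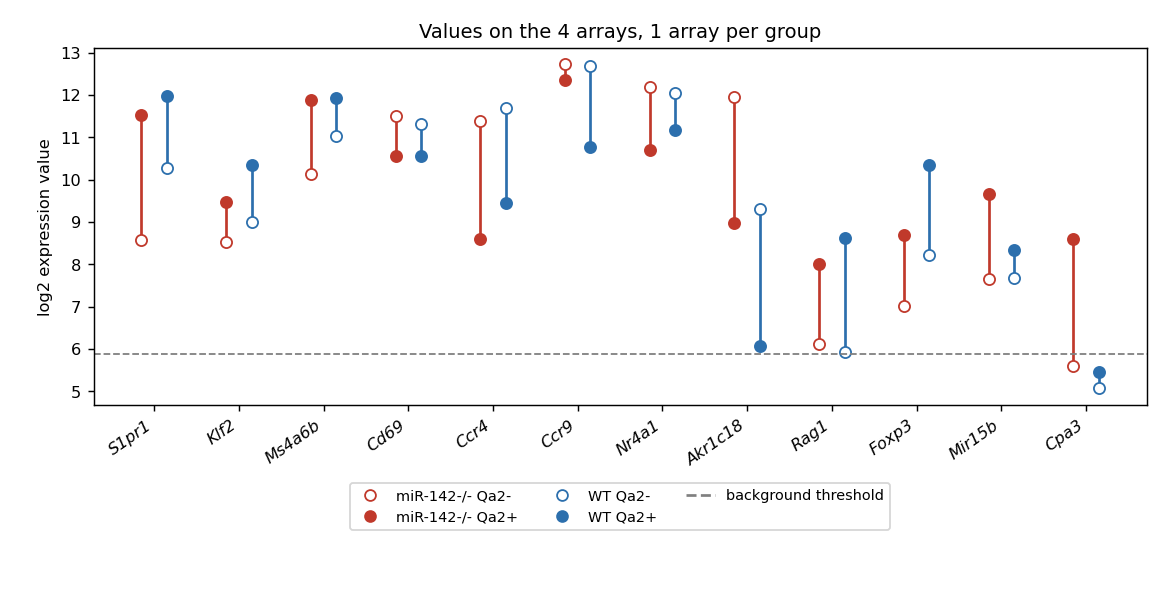
Log2 expression values of 12 genes on the 4 arrays, with 1 array per group; open circles are Qa2- cells, filled circles Qa2+ cells, red is miR-142-/-, blue is WT, and the dashed line is the background threshold. S1pr1 spans 8.57 to 11.51 without miR-142 and 10.27 to 11.97 in WT, Ccr9 stays at 12.35 in miR-142-/- Qa2+ cells, and Cpa3 is above the threshold on the miR-142-/- Qa2+ array alone.

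Among the 20 genes with the largest differences towards higher values in miR-142-/- Qa2+ cells, Cpa3, the carboxypeptidase of mast cell and basophil granules, came first with 5.58 and 8.60, at least 6.67-fold higher. It read 5.07 and 5.46 in WT, below background on both arrays. S1pr1 followed, and then Atp8b4, a lipid flippase of the P4-ATPase family, with 5.70 and 8.28 (at least 5.35-fold higher). The adhesion protein gene Mpzl2 read 5.90 and 8.15 without miR-142 and 5.78 and 6.18 in WT, so its miR-142-/- difference was 2.25 and its WT difference 0.40.

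Some of the other genes high at the later stage, such as Ms4a6b, are known from mature T cells. The membrane protein genes Ms4a6b and Ms4a6c were 3.39-fold and 3.81-fold higher without miR-142, and 1.86-fold and 2.36-fold higher in WT. Il18r1, a chain of the interleukin-18 receptor, read 6.81 and 8.61 (3.48-fold higher; WT 2.06-fold). Crip1, which encodes a LIM-domain protein, was 3.15-fold higher (WT 2.12-fold) and the multidrug transporter gene Abcb1a 3.04-fold (WT 1.20-fold). The filamin-binding protein gene Rflnb was 4.14-fold higher (WT 5.29-fold) and the interferon-induced gene Ifit3 3.17-fold (WT 3.19-fold). Ttc39b was 3.95-fold (WT 2.67-fold) and Lratd2 3.07-fold higher (WT 1.37-fold). For both, the second probe set gave a smaller difference without miR-142, 1.58 and 1.15 against 1.98 and 1.62.

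Other genes among the 20 are best known from other thymic cells or stages. Rag1, of the recombinase that rearranges receptor genes, read 6.11 and 8.02 (3.74-fold higher; WT 6.57-fold), and Dntt, the terminal transferase that adds bases at the joins, 7.94 and 9.54 (3.03-fold higher; WT 1.98-fold). Foxp3, the lineage factor of regulatory T cells, read 7.01 and 8.69 (3.20-fold higher) against 8.21 and 10.36 in WT (4.43-fold higher). The cytotoxic granule gene Nkg7 was 3.23-fold higher without miR-142, and the chemokine gene Ccl3 at least 3.08-fold. Their WT differences were -1.32 and -0.74, with Ccl3 below background on both WT arrays. The remaining 2 of the 20 are the microRNA genes Mir15b and Mir16-2, described below.

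**Figure D2:**
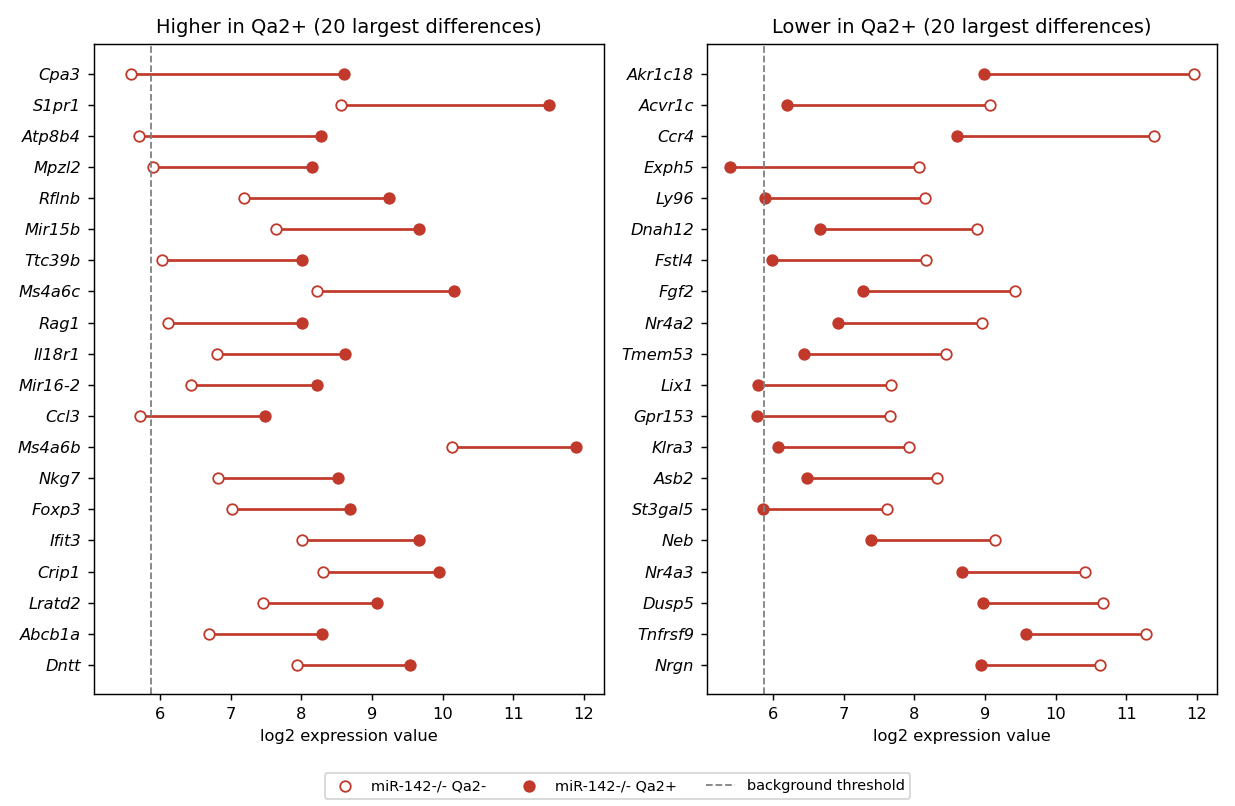
Log2 expression values of the 20 genes with the largest differences in each direction between the miR-142-/- Qa2- array (open circles) and the miR-142-/- Qa2+ array (filled circles), 1 array each; the dashed line is the background threshold. Cpa3 runs from 5.58 to 8.60 and S1pr1 from 8.57 to 11.51 on the left, and Akr1c18 from 11.96 to 8.98 and Ccr4 from 11.39 to 8.60 on the right.

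At the other end, Akr1c18, a reductase that inactivates progesterone, had the largest difference towards lower values: 11.96 in Qa2- and 8.98 in Qa2+ cells without miR-142 (7.89-fold lower) and 9.30 and 6.07 in WT (9.44-fold lower). The stages are far apart in both genotypes for this gene, and both miR-142-/- arrays read higher than the WT array of the same stage. Acvr1c, a type I receptor of the activin family, read 9.07 and 6.19, 7.36-fold lower, against at least 2.05-fold in WT. The Rab27 partner gene Exph5 was at least 4.60-fold lower and Ly96, the MD-2 subunit of the lipopolysaccharide receptor, 4.80-fold lower.

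The rest of the 20 were genes of mixed function. Fgf2, of a growth factor, read 9.42 and 7.27 (4.45-fold lower; WT 3.57-fold). The follistatin-like gene Fstl4 read 8.17 and 5.99 without miR-142 but 5.33 and 5.60, both below background, in WT. The orphan nuclear receptor genes Nr4a2 and Nr4a3 were 4.09-fold and 3.36-fold lower, the ERK phosphatase gene Dusp5 3.27-fold, the co-stimulatory receptor gene Tnfrsf9 3.22-fold, and Nrgn, of the calmodulin-binding protein neurogranin, 3.20-fold. Klra3, a Ly49 receptor gene of natural killer cells with close copies in its cluster, was 3.61-fold lower (WT at least 4.46-fold). The ubiquitin ligase subunit gene Asb2 was 3.59-fold lower, the muscle protein gene Neb 3.39-fold, Tmem53 4.02-fold, the orphan receptor gene Gpr153 at least 3.46-fold, Lix1 at least 3.50-fold, and the ganglioside synthase gene St3gal5 at least 3.37-fold. The dynein gene Dnah12 was 4.69-fold lower by the probe set used, but its other probe set, which is below background, gave -0.21.

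The lists of stage markers differed between the arrays in the direction their names give. They hold the sort marker Cd69 and the receptor genes S1pr1, Ccr4 and Ccr9, and were chosen with earlier results of these data known. Their direction is therefore a description and not an independent check. Of 24 genes listed for newly selected single-positive cells, 23 were above background, with a median difference of -0.69 without miR-142 and -0.77 in WT; without miR-142, 12 were lower by 1.5-fold or more at the later stage and 3 higher. Cd24a, a surface protein of immature thymocytes, read 10.81 and 9.70 without miR-142 and 10.97 and 9.29 in WT. Itm2a, induced during positive selection, read 12.98 and 12.17 without miR-142 and 12.64 and 10.92 in WT. For both genes, as for Ccr9, the Qa2- arrays were within 0.34 of each other and the miR-142-/- Qa2+ array stayed above the WT Qa2+ array. The chromatin and transcription factor genes Sox4 and Tox differed by -0.82 and -0.56, and the sulfotransferase gene Chst2 by -1.32 (WT -1.33). The 3 members that went the other way were Rag1, Dntt and Ly6d, the last at 8.09 and 9.65.

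Of 27 genes listed for mature single-positive cells, 20 were measured and 19 were above background. Their median difference was 0.84 without miR-142 and 0.46 in WT, and 11 were at least 1.5-fold higher and 1, the interferon gamma receptor gene Ifngr2 (-0.60), at least 1.5-fold lower. The members that were higher include S1pr1, Klf2, Ms4a6b, the toll-like receptor gene Tlr1 (7.40 and 8.58; WT 7.36 and 9.76), the integrin gene Itgb7 (9.51 and 10.39) and Slfn1 (9.77 and 10.90). Il7r, of the survival cytokine receptor of naive T cells, read 12.71 and 12.72, and B2m, the invariant chain of class I molecules, 13.11 and 13.09, each within the receptor-gene SD.

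**Figure D3:**
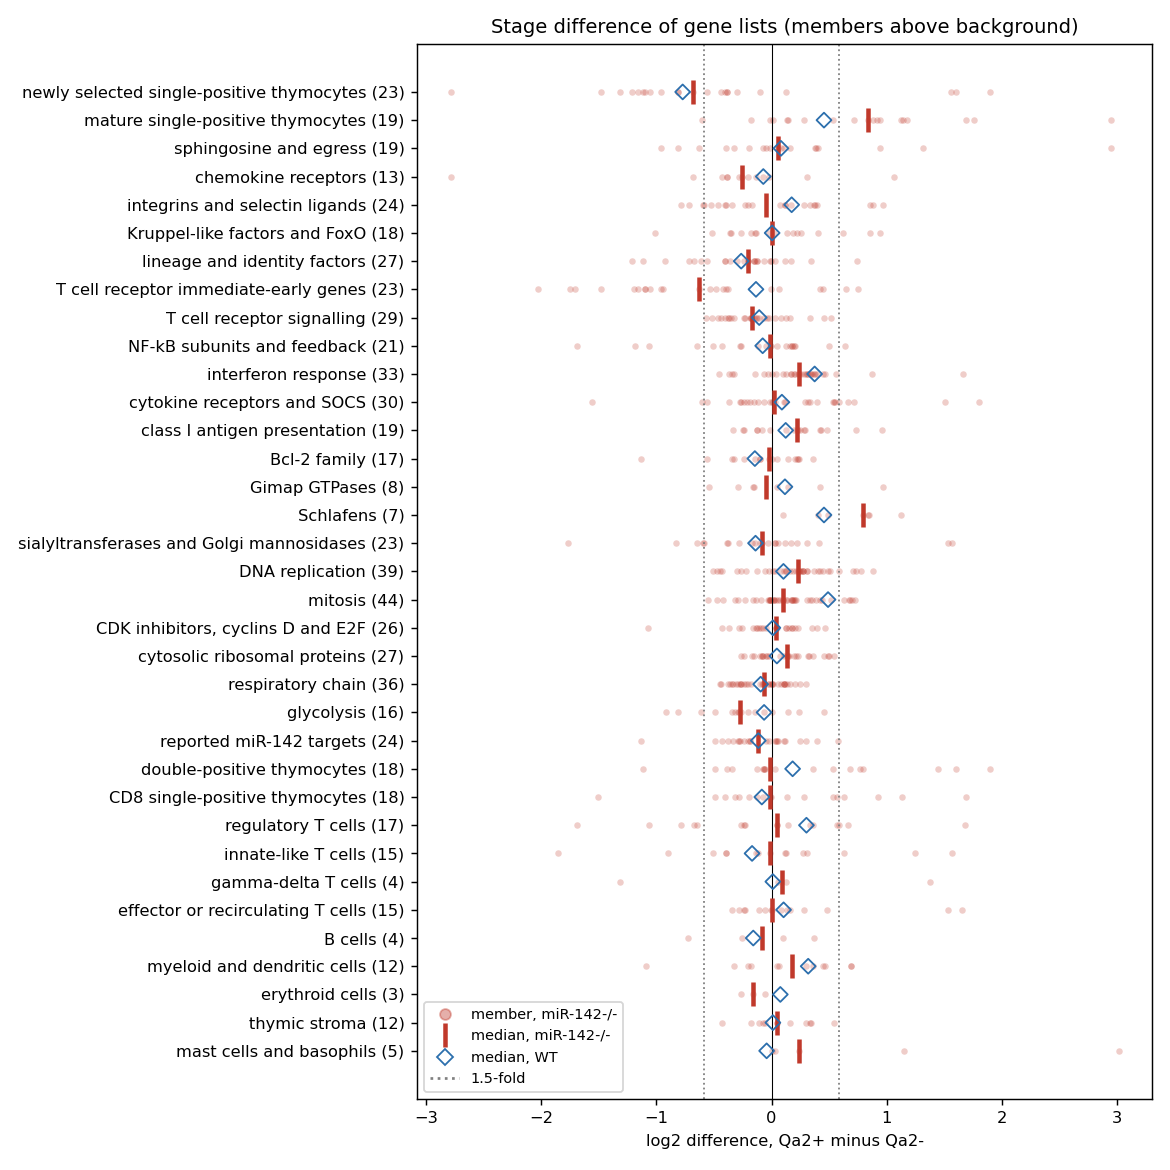
Log2 difference between Qa2+ and Qa2- cells for the genes of 35 lists: red dots are the miR-142-/- differences of members whose mean over the 4 arrays is above background (their number in brackets), some of which are below the threshold on both miR-142-/- arrays, red bars their medians, blue diamonds the WT medians, and dotted lines 1.5-fold. The median of the newly selected list is -0.69 and that of the mature list 0.84 without miR-142; the immediate-early list lies at -0.63 without miR-142 and -0.14 in WT.

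In the sphingosine and egress list, 19 of 21 measured genes were above background, 3 of them at least 1.5-fold higher and 3 at least 1.5-fold lower without miR-142, with a median of 0.06 (WT 0.08). Klf2 read 8.53 and 9.47 without miR-142 and 9.0 and 10.34 in WT, so its stage difference was 0.95 and 1.33. Without miR-142 the Klf2 difference was the smaller of the 2 genotypes and the S1pr1 difference the larger, and a link between these genes was not tested. S1pr4, a second sphingosine-1-phosphate receptor, was 2.49-fold higher (WT 2.82-fold), whereas S1pr2, which opposes migration, differed by -0.63 (WT -0.71). Plxnd1, a semaphorin receptor gene of thymocytes, differed by -0.81 (WT -1.0), and Cd69 by -0.96 (WT -0.77). The sphingosine-1-phosphate metabolism and export genes Sphk1, Sphk2, Sgpl1 and Spns2 differed by -0.01 to 0.16.

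Among the 13 chemokine receptor genes above background, of 22 measured, Cxcr4 was at least 1.5-fold higher without miR-142 and Ccr4 and Ccr8 at least 1.5-fold lower. Cxcr4, the CXCL12 receptor, read 10.30 and 11.37 (WT 9.08 and 10.19). Ccr8 read 11.61 and 10.92 (WT 10.80 and 9.78), and Ccr7, which guides cells through the medulla, 12.37 and 11.98 (WT 12.32 and 12.28). Cxcr6, a receptor of innate-like and effector cells, differed by -0.14 without miR-142 and by -1.20 in WT, where its Qa2- array read 8.56 against 6.21 without miR-142.

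The integrin list, with 24 of 29 measured genes above background, had 3 members at least 1.5-fold higher and 4 at least 1.5-fold lower. Itga4 and Itgb7, whose products pair as the gut-homing integrin, were 1.96-fold and 1.84-fold higher (WT 1.60-fold and 1.94-fold), and Itga6, a laminin receptor chain, 1.81-fold (WT 1.67-fold). The fibronectin receptor chain gene Itga5 was 1.65-fold lower and Itgb3 1.51-fold lower. Itgb8, whose integrin activates latent TGF-beta, read 6.67 and 5.88 without miR-142 but 6.53 and 7.29 in WT.

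The Kruppel-like factor and FoxO list had 18 of 20 measured genes above background, 3 at least 1.5-fold higher and 1 at least 1.5-fold lower. Besides Klf2, Klf3 (9.30 and 10.16; WT 9.21 and 10.55) and Klf6 (8.59 and 9.21) were higher, and Klf10, a TGF-beta-induced member, was lower (9.15 and 8.14). Foxo1, the factor that acts upstream of Klf2, differed by 0.40 (WT 0.49), short of 1.5-fold.

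Gata3, Zbtb7b, Id3, Tox2, Ikzf2 and Bach2 were the members of a mixed list of lineage and identity factors that were lower at the later stage by 1.5-fold or more. In that list, 27 of 28 measured genes were above background, with 6 at least 1.5-fold lower and 1 at least 1.5-fold higher and a median of -0.21 (WT -0.26). Gata3, needed for CD4 commitment, read 11.24 and 10.12 (2.17-fold lower; WT 1.55-fold), and Zbtb7b, which encodes the CD4 fate factor ThPOK, 10.73 and 10.02 (1.64-fold lower; WT 1.63-fold). Id3, an E-protein inhibitor, read 8.80 and 7.58 without miR-142 and 8.88 and 9.04 in WT: the miR-142-/- Qa2+ array is the lowest and the other 3 lie within 0.24. Tox2, Ikzf2 (Helios) and Bach2 differed by -0.93, -0.67 and -0.61, and Myb by 0.75 in the other direction (WT 0.10).

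Many of the genes that T cell receptor signals switch on quickly were lower in miR-142-/- Qa2+ cells. Of 25 listed, 23 were above background. Without miR-142, 12 were at least 1.5-fold lower and 2, Jun and Myc, at least 1.5-fold higher, against 10 and 1 in WT. The median difference was -0.63 without miR-142 and -0.14 in WT. In 19 of the 23 genes the miR-142-/- difference was the more negative of the 2, against 50.1% of all genes above background.

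The nuclear receptor gene Nr4a1, which tracks the strength of receptor signals, read 12.19 and 10.71 without miR-142 and 12.06 and 11.16 in WT. Nr4a2 read 8.95 and 6.92 (WT 9.05 and 7.70), and Nr4a3 10.42 and 8.67 (WT 10.39 and 9.58). For all 3 the Qa2- arrays of the genotypes lay within 0.14 of each other, and the miR-142-/- Qa2+ array was the lowest. The phosphatase genes Dusp5 and Dusp4 had the same arrangement, with Dusp4 at 7.71 and 6.77 against 7.79 and 7.90 in WT, as had the AP-1 gene Fosl2 (8.44 and 7.34; WT 8.37 and 8.23). The early growth response genes Egr1 and Egr2 differed by nearly the same amount in both genotypes, -1.06 and -1.10 against -1.04 and -0.88. Irf4 was 2.29-fold lower from a lower Qa2- value than WT (8.50 against 9.37).

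**Figure D4:**
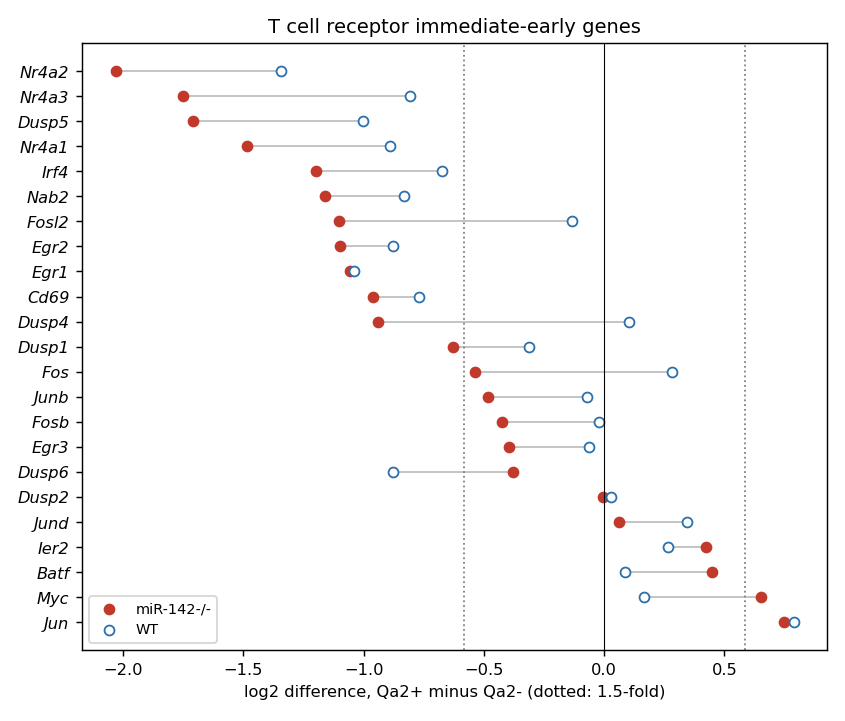
Log2 difference between Qa2+ and Qa2- cells for the 23 immediate-early genes above background, miR-142-/- in filled red and WT in open blue, 1 array per group, with dotted lines at 1.5-fold. Nr4a2 lies at -2.03 without miR-142 and -1.34 in WT, Egr1 nearly coincides at -1.06 and -1.04, and Dusp6 goes the other way at -0.38 and -0.88.

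The receptor and its proximal signalling chain differed little. All 29 listed signalling genes were above background and 0 of them differed by 1.5-fold without miR-142, with differences from -0.57 (the adaptor gene Sla) to 0.52 (the phosphatase gene Ptpn22). Cd3e read 12.92 and 12.75, and the kinase gene Zap70 10.86 and 10.48. In the NF-kB list, 4 of 21 genes were at least 1.5-fold lower, and none of the 4 encodes an NF-kB subunit. They were the tumour necrosis factor receptor family genes Tnfrsf9, Tnfrsf4 (11.20 and 10.14, WT 11.10 and 10.96) and Tnfrsf18 (-0.65), and the ligand gene Cd40lg (10.49 and 9.30). The inhibitor gene Nfkbie was 1.56-fold higher, and the subunit genes Rel, Rela, Relb and Nfkb2 differed by -0.28 to -0.01.

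Interferon-response genes were mostly a little higher at the later stage in both genotypes. Without miR-142, 26 of 33 members were above 0 and the median was 0.24; 2, Ifit3 (8.01 and 9.67) and Ifit2 (8.02 and 8.90), were at least 1.5-fold higher and 0 at least 1.5-fold lower. In WT the median was 0.37 and 8 were at least 1.5-fold higher. The antiviral gene Usp18 was 10.27 and 10.44 without miR-142 and 10.54 and 11.29 in WT, and Oas1a 6.43 and 6.74 against 6.82 and 7.87. Of the class I presentation genes, 2 of 19 were at least 1.5-fold higher, both the H2-Q genes given above, with Tap1 of the peptide transporter at 0.42 and Nlrc5, the class I transactivator, at 0.23.

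Among 30 cytokine receptor and SOCS genes above background, 4 were at least 1.5-fold higher and 2 at least 1.5-fold lower without miR-142, against 9 and 2 in WT. Il10ra, the ligand-binding chain of the interleukin-10 receptor, read 8.16 and 6.60 without miR-142 and 8.37 and 8.38 in WT, where the stages were level. Socs3, an inhibitor of STAT3 signalling, read 7.46 and 8.97 (2.85-fold higher; WT 2.18-fold), although its second probe set gave 0.15. Il18r1, Ifngr1 (0.72; WT 0.73) and Il2ra (0.66; WT 0.73) were the other higher members. Il12rb2, of the interleukin-12 receptor, differed by -0.37 without miR-142 and -1.65 in WT.

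Survival and small GTPase families were mostly level. Of 17 Bcl-2 family genes above background, 1, the anti-apoptotic Bcl2l1 (8.53 and 7.39; WT 8.89 and 8.00), was at least 1.5-fold lower, while Bcl2 read 12.26 and 12.12 and Mcl1 12.00 and 12.05. The pro-apoptotic gene Bcl2l11 differed by -0.24 without miR-142 and -0.89 in WT. Of the 8 Gimap genes, Gimap3 was 1.95-fold higher. The Schlafens, growth-regulating genes of T cells with close copies that may share signal, were mostly higher: 4 of 7 above background were at least 1.5-fold higher without miR-142 and 1 in WT, with medians of 0.80 and 0.46, and Slfn1, Slfn2 and Slfn8 differed by 1.12, 0.84 and 0.85.

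The glycan list, whose enzymes cap and trim surface sugars, split. Of 23 genes above background, 2 were at least 1.5-fold higher, St8sia6 (8.53 and 10.10) and Man1c1 (7.15 and 8.68), by nearly the WT amounts of 1.63 and 1.47. The 5 lower members were St3gal5, St3gal3, St3gal6, St3gal2 and St6gal1, at -1.77 to -0.59.

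Cell cycle lists gave different counts in the 2 genotypes, a difference that was not tested. DNA replication genes had a median of 0.23 without miR-142 and 0.10 in WT, with 5 of 39 at least 1.5-fold higher: the helicase subunit gene Mcm6 (8.30 and 9.19), Uhrf1 (0.78), the primase gene Prim1 (0.73), Ccne1 (0.70) and Gins1 (5.76 and 6.35, at least 1.40-fold higher when set against the threshold). Of the 44 mitosis genes above background, 9 passed that filter through the WT arrays and were below the threshold on both miR-142-/- arrays. The other 35 had a median of 0.10 without miR-142 and 0.51 in WT, and 5 against 16 were higher by 1.5-fold or more, among the 5 Bub1, whose Qa2- array is below the threshold. The difference was larger without miR-142 in 3 of the 35 (8.57%), compared with 50% of all genes above the threshold on an array of each genotype. The summed level of the 44 genes was 12.50 and 12.63 without miR-142 against 13.78 and 14.30 in WT; the part of the dimmer signal in the smaller differences was not tested. Among single genes, the proliferation gene Mki67 read 7.48 and 8.16 without miR-142 and 9.87 and 10.57 in WT, and Top2a, the topoisomerase of dividing cells, 7.68 and 7.66 against 9.73 and 10.28.

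Of the 26 CDK inhibitor, cyclin D and E2F genes, E2f3 (8.57 and 7.50; WT -0.53) was the one that differed by 1.5-fold without miR-142. The 27 ribosomal protein genes ranged from -0.27 to 0.55 and the 36 respiratory chain genes from -0.45 to 0.30, with 0 of them at 1.5-fold. Glycolysis genes had a median of -0.27 without miR-142 and -0.06 in WT; 3 of 16, the glucose transporter gene Slc2a3 (-0.62) and the enzyme genes Pgam1 (-0.92) and Eno3 (-0.81), were at least 1.5-fold lower.

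The array also carries probe sets over microRNA hairpin genes, which read primary transcripts of the region and not mature microRNAs. This class was taken up after its values were seen. Of 103 microRNA genes above background, 5 were higher and 5 lower by 1.5-fold or more in miR-142-/- Qa2+ cells. Mir15b read 7.64 and 9.67 (4.08-fold higher) against 7.67 and 8.35 in WT (1.60-fold higher), and Mir16-2, which lies beside it within the gene Smc4, 6.44 and 8.22 (3.44-fold higher) against 6.26 and 6.94 (1.61-fold higher). The host gene Smc4 itself read 11.67 and 12.02, a difference of 0.35, and the neighbouring gene Trim59 differed by 0.84. The related pair on another chromosome, Mir15a and Mir16-1, differed by 0.16 and 0.56. Mir19b-1 (0.83, WT -0.32) and Mir18 (0.61, WT -0.48), of the Mir17-92 cluster, and Mir1839 (0.71, WT 0.24) were the other higher ones. Mir19b-1 read 5.59 in Qa2- cells, below the threshold, and was at least 1.47-fold higher when set against it.

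The lower ones were the thymocyte microRNA genes Mir181b-1 (9.86 and 9.02) and Mir181a-2 (7.63 and 6.91), the activation-induced Mir155 (6.68 and 5.88), Mir32 (-0.71) and Mir540 (-0.68). The WT differences of Mir181b-1, Mir181a-2 and Mir155 were -1.01, -1.04 and -0.27. The mature forms of those genes that T cells are best known for group by seed as follows (RefSeq, GRCm38.p6, seeds in capitals): the miR-15 and miR-16 pair, whose genes read higher in Qa2+ cells, share one seed, at chr3:69009775-69009796 and chr3:69009918-69009939 on the plus strand; miR-181a and miR-181b share another. The same mature miR-181 forms also come from Mir181a-1 and Mir181b-2, which differed by -0.22 and -0.47 (WT -0.54 and -1.12) and did not reach 1.5-fold without miR-142.
miR-15b-5p: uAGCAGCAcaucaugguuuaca
miR-16-5p: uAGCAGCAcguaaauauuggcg
miR-181a-5p: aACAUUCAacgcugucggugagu
miR-181b-5p: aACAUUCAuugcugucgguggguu
miR-155-5p: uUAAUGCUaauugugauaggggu

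Transcripts that have been reported as miR-142 targets had a median near that of all genes. Of 24 such genes above background, 1, Bcl2l1, was at least 1.5-fold lower and 0 were at least 1.5-fold higher, with a median of -0.12 without miR-142 and -0.11 in WT. The antioxidant regulator gene Nfe2l2 came closest to 1.5-fold in the other direction, with a difference of 0.58 (WT 0.04). The actin-binding protein gene Cfl2 read 10.29 and 10.10, and the adenylate cyclase gene Adcy9 8.11 and 7.68.

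Markers of other cells that the gates could hold were read on the same arrays. Of 18 double-positive thymocyte genes above background, 6 were higher in miR-142-/- Qa2+ cells by 1.5-fold or more and 1 lower, against 7 and 2 in WT. The higher ones were Rag1, Dntt, Smad7 (1.45), Arpp21 (0.79), Aqp11 (0.77) and Endou (0.68). Endou read 5.37 in Qa2- cells, below the threshold, and was at least 1.14-fold higher when set against it. Of other markers of that cell, Ptcra differed by 0.36 (WT 0.64), and Rag2 by 0.84 (WT 0.92) with all 4 arrays below background. Cd8a differed by -0.08 and Cd8b1 by -0.49, but the bead depletion and the CD8- gate select on these. The part of such cells was not tested. The summed level of the list was 14.23 in Qa2- and 14.16 in Qa2+ cells on the log2 scale.

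Regulatory T cell markers split without miR-142. Of 17 above background, 2 were at least 1.5-fold higher without miR-142, Foxp3 and Il2ra, and 5 at least 1.5-fold lower, Tnfrsf9, Tnfrsf4, Tnfrsf18, Ikzf2 and Itgb8; in WT the counts were 7 and 1. The difference was larger without miR-142 than in WT for 1 of the 17 genes (5.88%), against 49.9% of all genes above background. Ctla4, an inhibitory receptor gene of these cells, read 6.07 and 6.64 without miR-142 and 8.69 and 9.29 in WT, and the neuropilin gene Nrp1 7.68 and 7.83 against 7.47 and 8.69. The summed level was 13.98 and 13.63 without miR-142.

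Of 18 CD8 single-positive markers above background, 4 were at least 1.5-fold higher without miR-142: Nkg7, the cystatin gene Cst7 (6.97 and 8.11), the perforin gene Prf1 (6.84 and 7.77) and the granzyme gene Gzma (6.17 and 6.80). The chemokine gene Xcl1 was lower (7.32 and 5.82). Without miR-142 the list median was -0.01, with 8 of the 18 above 0. In WT, 0 were at least 1.5-fold higher and 5 at least 1.5-fold lower. The values of Cd8a and Cd8b1, on whose product the cells were sorted, are given above, and the part of CD8 cells was not tested. Among 15 innate-like T cell markers above background, Plac8 (5.88 and 7.45), Maf (7.81 and 9.05, WT 7.55 and 7.68) and Gzma were at least 1.5-fold higher. Klra3 and Il17rb (10.74 and 9.84) were lower by as much, and in WT 2 members were higher and 5 lower. Zbtb16, their defining factor PLZF, read 6.87 and 6.99 without miR-142 and 7.55 and 8.71 in WT. Of 15 effector or recirculating cell markers above background, Crip1 and Emp3 (9.87 and 11.40) were at least 1.5-fold higher and 0 lower, against 6 and 2 in WT. Cd44, the usual surface marker of such cells, read 7.89 and 7.66. The summed level in Qa2- and Qa2+ cells without miR-142 was 12.18 and 12.45 for the CD8 list, 13.08 and 12.84 for the innate-like list and 14.43 and 14.58 for the effector list.

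The gamma-delta list had 4 genes above background, of which 5830411N06Rik was 2.61-fold higher and Etv5 2.49-fold lower (WT 0.46 and -1.50). The B cell, erythroid and stromal lists had 4, 3 and 12 genes above background. Of these, 1, the B cell coactivator gene Pou2af1 (-0.73), differed by 1.5-fold without miR-142. The summed levels of the 3 lists differed by -0.14 to 0.30. The probe sets of the B cell gene Ighm disagreed without miR-142: the one used differed by 0.10 and another by 0.09. The remaining one read 7.79 and 5.65, a difference of -2.14, against 4.05 and 4.01 in WT. In the myeloid and dendritic list of 12, the lysozyme gene Lyz2 (5.98 and 6.67; WT 5.87 and 7.48) and the class II gene H2-Aa (6.12 and 6.81) were at least 1.5-fold higher and the invariant chain gene Cd74 (9.74 and 8.66) lower, with a summed level of 11.85 and 11.88. The part of these cells in the stage differences was not tested.

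Mast cell and basophil markers were listed after Cpa3 had been seen at the head of the differences. Of 16 such genes, 5 passed the background filter and 8 were below the threshold on all 4 arrays, among them the IgE receptor genes Fcer1a (4.26 and 4.69) and Ms4a2 (4.45 and 4.85). Beside Cpa3, the basophil protease genes Mcpt8 and Prss34 read highest on the miR-142-/- Qa2+ array: Mcpt8 read 5.08 and 7.44 (WT 5.01 and 4.88) and Prss34 6.43 and 7.58 (WT 6.08 and 6.03). The mast cell receptor gene Kit read 7.42 and 7.42. The summed level of the list was 9.62 and 10.45 without miR-142 and 9.65 and 9.62 in WT. The share of basophils or mast cells in the sorted cells, and their part in other genes such as Ccl3, was not tested.

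Set against WT maturation, which uses no array in common, most large miR-142-/- differences had a WT counterpart of the same sign. Of the 90 genes at least 2-fold higher, 32 were also at least 2-fold higher in WT (35.6% of 90 and 48.5% of the 66 WT genes), 63 at least 1.5-fold higher and 85 had the same sign. Of the 103 at least 2-fold lower, 52 were at least 2-fold lower in WT (50.5% of 103 and 56.5% of the 92 WT genes), 87 at least 1.5-fold lower and 98 had the same sign. The median differences of the higher genes were 1.33 without miR-142 and 0.89 in WT, and those of the lower genes -1.26 and -1.0; the genes were selected on the first of each pair, so the smaller WT medians are not read as a result. Over all genes above background, 71.8% had the same sign in both genotypes. Over all 12591 genes, which are not independent replicates, Pearson's r between the stage differences was 0.66, and over the receptor genes, which share the arrays and their normalization but should hold no stage signal, it was 0.47.

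**Figure D5:**
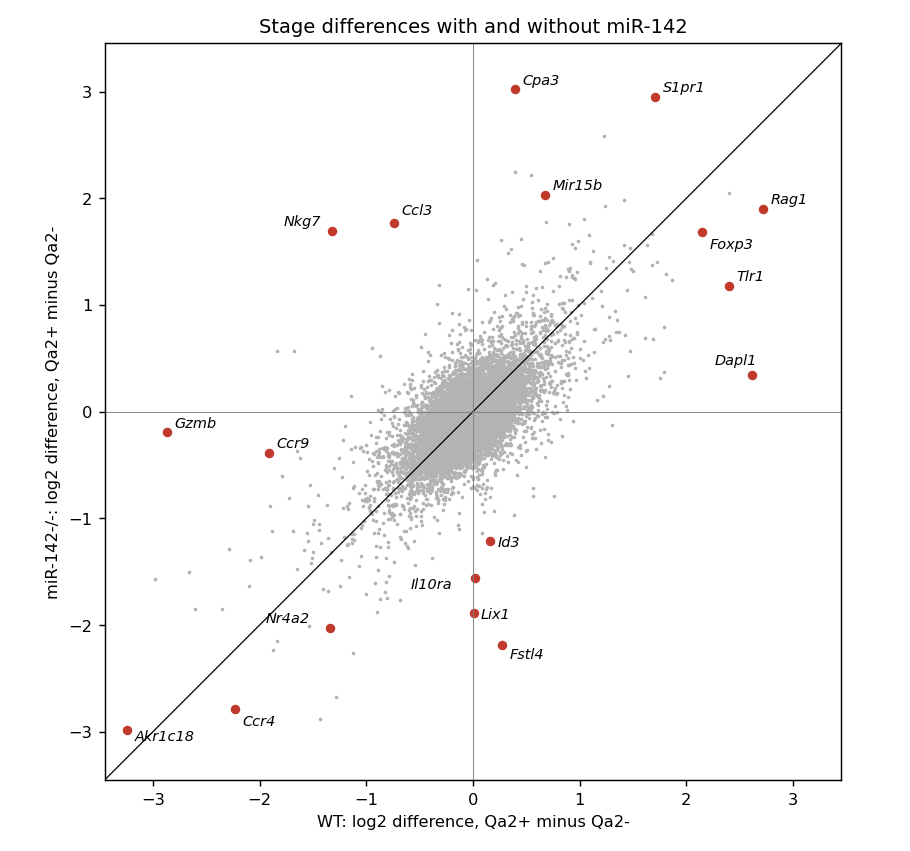
Log2 difference between Qa2+ and Qa2- cells in WT (horizontal axis) and miR-142-/- cells (vertical axis) for 12591 genes above background (grey), with 18 genes of the text in red and the line of equal difference. Akr1c18 and Ccr4 lie near the line, S1pr1 (1.71 in WT, 2.95 in miR-142-/-) above it, and Gzmb (-2.87 and -0.19) and Dapl1 (2.61 and 0.34) have a WT difference with little in miR-142-/- cells.

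The stage difference was at least 2-fold larger (more positive) without miR-142 than in WT for 42 genes (0.334%) and at least 2-fold smaller for 31 (0.246%). This difference of differences rests on 1 array per group and could not be tested. The largest, 3.01 for Nkg7, comes from 6.83 and 8.52 without miR-142 and 10.29 and 8.97 in WT, so the miR-142-/- Qa2- array is the low one. The cytotoxic granule gene Gzmb read 5.62 and 5.43 against 8.88 and 6.02, the natural killer receptor gene Klrd1 5.26 and 5.84 against 7.96 and 6.13, and Fgl2, a secreted immune regulator, 5.24 and 5.81 against 7.84 and 6.16. In these 3 the WT Qa2- array is the bright one and the miR-142-/- values are below the threshold on both arrays, so the stages differ on the WT arrays. Cpa3, Ccl3, Mpzl2, Ccr9, the Wnt modulator gene Sfrp2 (0.60 against -0.95) and Fam221a (1.19 against -0.32) complete the 10.

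In the opposite direction, Fstl4 and Lix1 were detected in miR-142-/- Qa2- cells and at or below 5.99 elsewhere: Lix1 read 7.67 and 5.78 against 5.04 and 5.05 in WT. Dapl1, a gene of resting mature T cells, read 8.64 and 8.98 without miR-142 and 7.11 and 9.72 in WT. Igfbp4, which encodes an insulin-like growth factor binding protein, read 10.95 and 11.33 against 9.96 and 11.76. For both, the WT stages are further apart and the miR-142-/- Qa2- array is already above the WT Qa2- array. Sidt1, of a transmembrane protein family, read 7.04 and 7.36 against 8.67 and 10.42, lower without miR-142 at both stages, and the adhesion protein gene Jaml differed by -0.13 without miR-142 and 1.30 in WT. Il10ra, Itgb8, Acvr1c and Exph5 complete the 10.

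Promoter sequence was examined for Ccr4 and Ccr9, which differed by -2.79 and -0.38 between the stages. The sequence source used held no promoter of S1pr1, so that gene could not be examined. KLF factors bind CACCC boxes. The 250 bases before the start of Ccr4 (chr9:114496545-114496794, minus strand) and of Ccr9 (chr9:123766961-123767210, plus strand), from RefSeq on GRCm38.p6, are written 5′ to 3′ with CACCC or its reverse complement GGGTG in capitals.
Ccr4: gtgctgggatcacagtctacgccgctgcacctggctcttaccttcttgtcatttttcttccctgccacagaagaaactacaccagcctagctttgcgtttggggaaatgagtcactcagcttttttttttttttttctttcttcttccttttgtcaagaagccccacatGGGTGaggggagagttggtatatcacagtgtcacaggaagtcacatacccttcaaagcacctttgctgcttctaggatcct
Ccr9: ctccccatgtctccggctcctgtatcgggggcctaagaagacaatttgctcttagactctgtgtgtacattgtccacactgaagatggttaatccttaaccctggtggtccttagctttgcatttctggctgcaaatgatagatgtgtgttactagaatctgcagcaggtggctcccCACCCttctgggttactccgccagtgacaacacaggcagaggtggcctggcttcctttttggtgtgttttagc

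Each holds 1 match to CACCC on either strand and 0 to TGTTTAC, a FoxO-type motif read on either strand; neither motif holds the other. Such matches are common: 51.3% of all 27025 promoters of this length hold CACCC, 57.8% of those of genes above background, 65.6% of the 64 promoters found for the genes 2-fold or more higher in Qa2+ cells without miR-142 and 69.5% of the 82 found for those 2-fold or more lower. TGTTTAC was in 3.09%, 2.22%, 4.69% and 2.44% of the same sets. A match describes the letters of the window and not binding.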

How the data were processed

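RNA of 4 sorted CD4 single-positive thymocyte pools was hybridised to Affymetrix Mouse Gene 1.0 ST arrays, 1 array per group. For each probe set the authors deposited a log2 expression value, made with RMA (background correction, quantile normalization and summarising of probes) in Partek, per the submitters' processing notes; versions are not given in the sources used here. The number of arrays limits the precision.

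Of 35557 probe sets, 21789 carry 1 gene in GEO's platform annotation, 1621 several and 12147 none; 21698 were matched to current symbols by Entrez ID (RefSeq, GRCm38.p6). Where a gene had several probe sets, the brightest by its mean of the 4 arrays was read. Genes were kept when that mean exceeded the 95th percentile of the means of 1194 genes for receptors of smell and pheromones. Log2 differences were counted at 2-fold and 1.5-fold with pandas 2.3.3 and numpy 2.4.6; no model was fitted. The counting was tested on simulated data. A summed level is log2 of the sum of linear values over a list.

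The genes named are those that check the labels, S1pr1, Ccr4 and Ccr9, the 20 largest differences each way, up to 5 members of each of 34 lists and those at least 1.5-fold apart, and the 10 largest differences from WT each way, leaving out predicted genes, Rik clones, receptors of smell and antigen receptor segments from the largest differences; other genes, the microRNA class and the mast cell and basophil list were picked after their values were seen. The members and lists were chosen with earlier results of these data known. Alternatives tried were 2 scalings, 4 other background filters, the mean of all probe sets and, chosen after seeing the data, dim values set to the threshold.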

Additional observations from a re-analysis of the deposited data

Results flagged for a closer look

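By their log2 differences, with dim values left as they were, the genes below were at least 1.5-fold apart in opposite directions between the stages in the 2 genotypes. With 1 array per group, the difference between the genotypes was not tested. Ccl3, a chemokine gene, differed by 1.77 (log2, Qa2+ minus Qa2-) without miR-142 and by -0.74 in WT. Its WT arrays read 5.77 and 5.03, both below background, so a WT fold cannot be given. The mast cell and basophil gene Cpa3 is high on the same miR-142-/- Qa2+ array, and a link between Ccl3 and Cpa3 was not tested. Nkg7, of cytotoxic granules, differed by 1.69 without miR-142 and -1.32 in WT. Itgb8, an integrin chain gene, differed by -0.79 without miR-142 and 0.76 in WT. Sfrp2, a Wnt modulator gene, differed by 0.60 without miR-142 and -0.95 in WT. Its WT arrays read 5.98 and 5.03, at least 1.08-fold lower when set against the threshold.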

How the results depend on the processing

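No paired analysis was possible because the labels carry no replicate numbers and each group has 1 array; for the same reason no array could be left out. Across the alternatives, the count of genes at least 2-fold higher in miR-142-/- Qa2+ cells ranged from 79 to 107 and of those at least 2-fold lower from 86 to 109. Genes at least 2-fold higher were 46.6% of both directions together, 55.4% with arrays centred on their medians, 52.3% after quantile normalization and 46.5% to 48.2% under the others, so which direction held more genes depended on the scaling. Centring shifted the median of all genes by 0.07. With the 99th percentile of receptor genes as background, the median of the CD8 single-positive list was 0.21 over 10 genes and that of the myeloid and dendritic list -0.064 over 4. Of all values compared, 301 for counts and list medians and 640 for single genes stayed within 1.5 times the count or 1 SD of the receptor genes. Of 34 list medians, 7 changed sign under centring or quantile normalization, all of them within 0.05 of 0. Averaging all probe sets moved Lratd2 to 1.38, Dnah12 to -1.22, Socs3 to 0.83, Cycs to -0.15 and Ighm to -0.65. Values near the background threshold are limited by dim signal.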
